A study of Mus musculus with 6 samples.

Results

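The genes described here are 10 transcripts that mark or build the trophectoderm, the outer epithelium of the blastocyst, and other single-layered epithelia. They comprise 6 transcription factor genes (*Gata2*, *Gata3*, *Tfap2a*, *Tfap2c*, *Elf5* and *Tead4*) and 4 keratin genes (*Krt7*, *Krt8*, *Krt18* and *Krt19*). They were taken by gene name, and each matched 1 of the 54715 genes of the count table. RNA of mouse ASCs, advanced embryonic stem cells held between the naïve and the primed state, was sequenced for 3 WT replicates and 3 *Bdh2*-/- replicates, called *Bdh2*-knockout ASCs here. All libraries came from cells of 129/sv females crossed with GOF/GFP males, which carry a GFP reporter under *Oct4* control, grown in N2B27 medium with leukemia inhibitory factor, BMP4, activin A and CHIR99021. The knockout was a small Cas9 deletion near the start codon, and 1 homozygous ASC clone was carried forward in the study, but whether all 3 knockout libraries came from that clone is not stated, and effects of a clone and of the genotype cannot be told apart. Whether the replicates are separate cultures is not stated, and p-values then measure only the spread between these libraries.

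In the embryo, TEAD4 acts with its coactivators YAP and TAZ in the outer cells of the morula, where Hippo signaling is low, and starts the trophectoderm program. GATA3, GATA2 and the AP-2 factors TFAP2A and TFAP2C maintain that program, and ELF5 secures trophoblast stem cell identity behind a promoter that is methylated in embryonic cells. Keratins are the intermediate filaments of epithelia. A type II keratin (KRT7 or KRT8) always pairs with a type I keratin (KRT18 or KRT19), and KRT8 with KRT18 is the first pair made by the embryo. *Tead4* and *Tfap2c* are also expressed in pluripotent and germ cells.

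The libraries held 18927748 to 28333541 counts on genes. Taken as the smallest level that depth can show, 3 counts correspond to 0.106 to 0.158 per 1000000 counts of the library total. Elsewhere CPM means counts per 1000000 counts of the normalized library. *Bdh2* itself was at 9.43 ± 1.10 CPM (SD, n = 3) in WT ASCs and at 5.44 ± 0.485 CPM in *Bdh2*-knockout ASCs, 57.7% of the WT level. The paper reports lower remaining levels by RT-qPCR in its knockout ASCs, and cites decay of transcripts with a premature stop codon. Why this much *Bdh2* RNA was still counted was not tested. Pluripotency transcripts marked the cells as labelled: 15 of 15 listed embryonic stem cell genes passed the filter on low counts, and their summed level was 8497 to 8701 CPM in WT ASCs and 8940 to 9031 CPM in *Bdh2*-knockout ASCs. These sums did not overlap, and 10 of the 15 genes were called higher and 1 lower. The calls were 7 and 2 with library totals for scaling, and 5 and 1 with the hepatocyte score described below as a covariate. The part of these genes in the results was not tested. Transcripts of adult hepatocytes stood apart in part of the libraries. The sum of 20 such genes was 626, 387 and 62.8 CPM in WT replicates 1, 2 and 3 and 50.9, 185 and 34.97 CPM in the *Bdh2*-knockout replicates in the same order, with *Alb* the highest, and none of the 20 at 0 in any library. Of the 20, 16 were called lower by edgeR, but 0 by DESeq2 or limma-voom (4 and 5 at an unadjusted p under 0.05) and 0 without WT replicate 1, 4 without WT replicate 2 and 1 without *Bdh2*-knockout replicate 1 or 3. The sum of 20 primitive endoderm genes was 773 to 851 CPM in WT ASCs and 1408 to 1535 CPM in *Bdh2*-knockout ASCs. In bulk RNA, fewer cells of a type and less RNA per cell cannot be told apart.

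Of the 10 genes, 9 had enough counts to be tested across 16758 genes, and 4 of them fell in *Bdh2*-knockout ASCs: *Tead4*, *Tfap2c*, *Krt19* and *Krt7* (edgeR's quasi-likelihood test, adjusted p under 0.05). None rose, nor did any at an unadjusted p under 0.05 or with DESeq2 or limma-voom, which called 3 and 4 of the genes lower. Of all genes tested, 20.8% were called lower and 21.0% higher, so the 4 are read gene by gene. The same 4 genes were the ones in which all *Bdh2*-knockout libraries lay below all WT libraries, a pattern seen in 26.1% of all tested genes (26.3% had it the other way round). The remaining 5 tested genes, *Gata2*, *Gata3*, *Tfap2a*, *Krt8* and *Krt18*, overlapped between the genotypes, and *Elf5* was at or under 3 counts in every library. Within both groups, then, some genes fell and others did not pass.

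**Figure D1:**
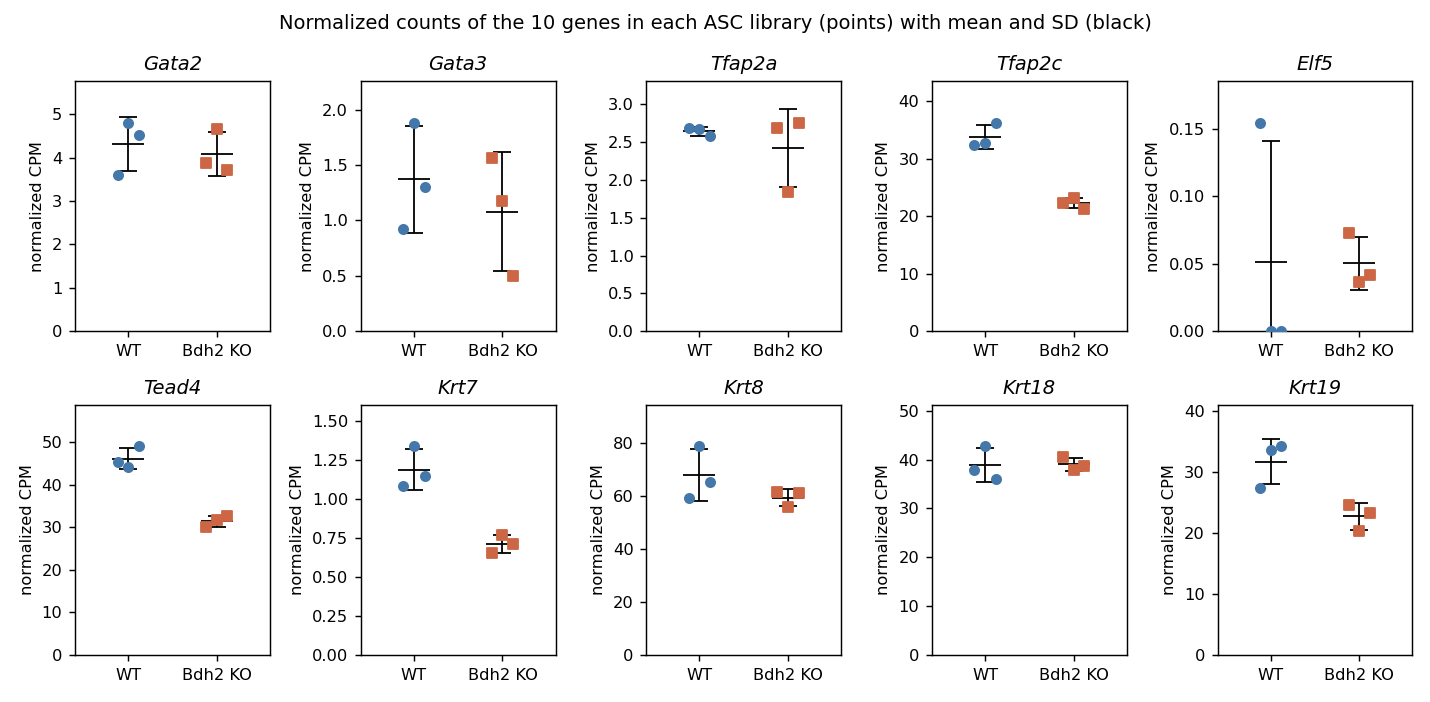
Normalized CPM (vertical axes, each from 0) of the 10 genes in WT ASCs (circles) and *Bdh2*-knockout ASCs (squares), with 1 point per library and the mean and SD of 3 libraries in black. *Tfap2c*, *Tead4*, *Krt7* and *Krt19* separate the genotypes, while the points of the other 6 genes overlap.

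*Tead4* (ENSMUSG00000030353), the TEA-domain factor that opens the trophectoderm program, lies on the minus strand of chromosome 6 of GRCm38 from 128224288 to 128300823. It was the most abundant of the 6 regulators. Its normalized level was 45.3, 44.04 and 48.96 CPM in WT replicates 1 to 3, and the *Bdh2*-knockout replicates gave 29.98, 31.6 and 32.5 CPM. The knockout libraries stood at 68.0% of the WT mean and lay close together, well under the lowest WT library. The log2 fold change was -0.56 (standard error 0.06, adjusted p = 1.23e-05 from edgeR), and it stayed between -0.59 and -0.51 when single libraries were left out.

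*Tfap2c* (ENSMUSG00000028640), the AP-2γ gene, lies on the plus strand of chromosome 2 from 172549593 to 172558622. It was at 32.4, 32.8 and 36.3 CPM in the WT libraries, and the *Bdh2*-knockout libraries gave 22.3, 23.1 and 21.3 CPM. Again the groups did not overlap, and the spread within each was narrow. The log2 fold change was -0.60 (standard error 0.07, adjusted p = 1.47e-05 from edgeR), and leaving out single libraries gave -0.63 to -0.55. The mean knockout level was 65.9% of WT. For neither gene do exons of other annotated genes cover any exon base, and 0.330% of the 50-base stretches of the longest *Tead4* transcript also occur in *Tead3*, against 0 for *Tfap2c*.

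The genes whose profile over the 6 libraries lay closest to that of *Tead4* were *Kctd13*, *Socs3* (a feedback inhibitor of LIF signaling) and *Abtb1*. Likeness was the root mean square difference of log2 levels, each gene centred on its own mean, over 9808 genes with a mean count of at least 200. It was 0.0230, 0.0334 and 0.0348 for the 3 genes. *Tfap2c* was at 0.0651 from *Tead4* by the same measure, and *Tfap2a*, *Gata2* and *Gata3* at 0.286, 0.293 and 0.559. *Tfap2a*, *Gata2* and *Gata3* lie under that count minimum, and counting error enters their distances more.

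*Gata2*, *Gata3* and *Tfap2a*, which act beside TFAP2C in trophectoderm, were measured at much lower levels. *Gata2* (ENSMUSG00000015053, chromosome 6, 88193891 to 88207032, plus strand) was at 3.61, 4.81 and 4.51 CPM in the WT libraries and 3.88, 4.66 and 3.71 CPM in the *Bdh2*-knockout libraries. The ranges lay over each other, and the log2 fold change was -0.08 (95% interval -0.42 to 0.27, adjusted p = 0.722 from edgeR). *Tfap2a* (ENSMUSG00000021359, chromosome 13, 40715302 to 40738376, minus strand) was at 2.68, 2.68 and 2.57 CPM in WT ASCs and 2.69, 1.83 and 2.75 CPM in *Bdh2*-knockout ASCs. Knockout replicate 2 alone was low, and the log2 fold change of -0.13 (95% interval -0.56 to 0.31, adjusted p = 0.641 from edgeR) became 0.05 without it. Exons of antisense transcripts cover 14.6% of the *Tfap2a* exon bases. Those transcripts were themselves counted at most 6 times in a library, and the sources used here do not say whether counting used strand.

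*Gata3* (ENSMUSG00000015619, chromosome 2, 9857078 to 9890034, minus strand) had 18, 38 and 33 counts in WT libraries and 43, 32 and 12 counts in *Bdh2*-knockout libraries, or 0.927, 1.88 and 1.31 CPM against 1.56, 1.17 and 0.501 CPM. Both groups held a low library and the values interleaved. The log2 fold change was -0.33, with a 95% interval from -1.13 to 0.47 that includes a fall as large as that of *Tead4* (adjusted p = 0.5001 from edgeR). It was 0.01 without *Bdh2*-knockout replicate 3. *Elf5* (ENSMUSG00000027186, chromosome 2, 103411688 to 103450989, plus strand) had 3, 0 and 0 counts in WT libraries and 2, 1 and 1 counts in *Bdh2*-knockout libraries, so a difference was not detectable at this depth and no fold is given.

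**Figure D2:**
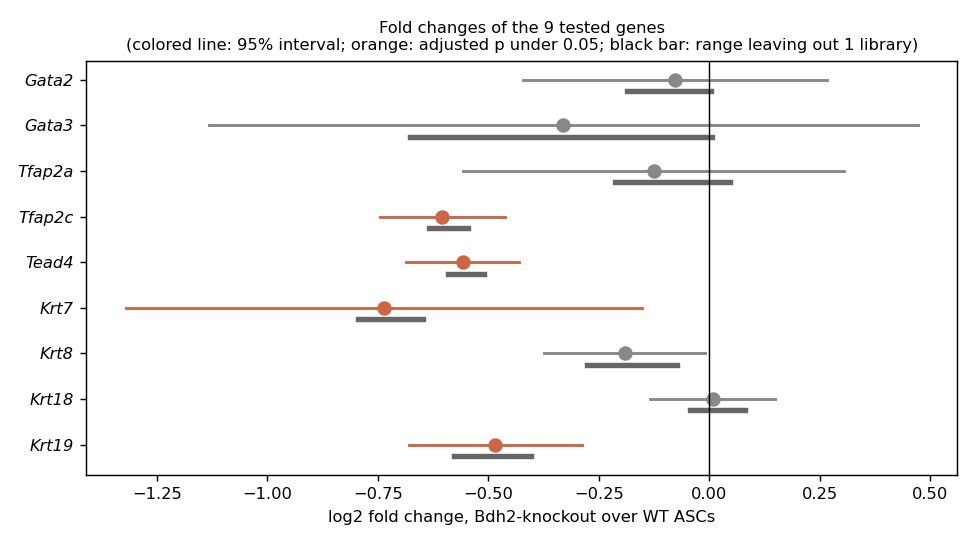
Log2 fold change of *Bdh2*-knockout over WT ASCs (horizontal axis) for the 9 tested genes, with the 95% interval from edgeR as a colored line (orange for adjusted p under 0.05, gray otherwise) and the range over 6 fits that each leave out 1 library as a black bar. The intervals of *Tfap2c*, *Tead4* and *Krt19* end at or below -0.29, that of *Gata3* runs from -1.13 to 0.47 and that of *Krt18* from -0.13 to 0.15.

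The keratins spanned a wide range of levels. Per length, as FPKM (CPM per 1000 bases of the listed gene length), *Krt8* was highest at 34.6 ± 5.04 (SD, n = 3) in WT ASCs, followed by *Krt18* at 27.04 ± 2.40, *Krt19* at 17.1 ± 2.03 and *Krt7* at 0.169 ± 0.0188. By mean FPKM *Krt8* exceeded 89.4% of the tested genes and *Krt18* 87.3%, whereas *Krt7* exceeded 3.26%. The listed length of *Krt7*, 7049 bases, joins the exons of 5 transcripts, the longest with 4094 bases, so its FPKM may understate its level. *Krt8* and *Krt18* have 1 transcript each. On the same scale *Tead4* (12.8 ± 0.709) and *Tfap2c* (9.19 ± 0.581) lay below *Krt19*, and *Gata2* (0.798), *Tfap2a* (0.539) and *Gata3* (0.345) were each under 1 FPKM. In *Bdh2*-knockout ASCs the order of the 4 keratins was the same, at 30.3 ± 1.62, 27.1 ± 0.946, 12.2 ± 1.19 and 0.101 ± 0.00829 FPKM. In every library *Krt8* exceeded *Krt18*, by 1.08 to 1.35 times, while in WT ASCs the lowest *Krt8* value (30.3) was close to the highest *Krt18* value (29.7).

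*Krt8* (ENSMUSG00000049382, minus strand, 101996698 to 102004482) and *Krt18* (ENSMUSG00000023043, plus strand, 102028180 to 102032027) are neighbours on chromosome 15, transcribed away from each other from starts 23.7 kb apart. *Krt18* is the type I gene that lies at the end of the type II cluster. *Krt7* (ENSMUSG00000023039, plus strand, 101411043 to 101430313) sits in the same cluster. The 23 keratin genes listed between *Krt7* and *Krt8*, most of them genes of stratified epithelium and hair, had no more than 7 counts each in any library. *Krt19* (ENSMUSG00000020911, minus strand, 100140810 to 100148665) is in the type I cluster of chromosome 11.

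**Figure D3:**
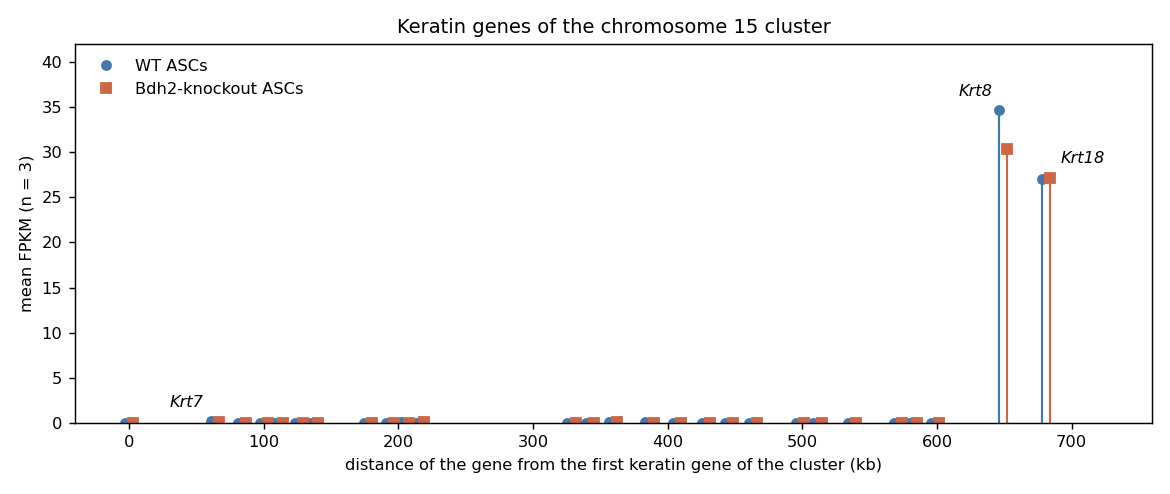
Mean FPKM of 3 libraries (vertical axis) of the 27 keratin genes of the chromosome 15 cluster by the distance of each gene from the first one in kb (horizontal axis), for WT ASCs (circles) and *Bdh2*-knockout ASCs (squares), drawn slightly apart at each gene. *Krt8* and *Krt18* stand at 27.04 to 34.6 FPKM at the end of the cluster, and the other 25 genes, *Krt7* included, lie near 0.

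The promoter windows of the keratins on chromosome 15 are shown because they hold the pair that dominates the keratin RNA and the weakly transcribed *Krt7* of the same cluster. The sequences are from a table of RefSeq promoter windows (GRCm38.p6), in which 7 of the 10 genes were matched, and run from 250 bases before to 50 bases after the start site, 5′ to 3′. Capitals mark matches on either strand to 1 of 3 motifs. The AP-2 motif was GCCNNNGGC. GGAATG stood for the TEAD factors. For the GATA factors, AGATAA was searched. The windows are chr15:102004293-102004592 on the minus strand for *Krt8*, chr15:102027966-102028265 on the plus strand for *Krt18* and chr15:101412153-101412452 on the plus strand for *Krt7*.
Krt8 promoter: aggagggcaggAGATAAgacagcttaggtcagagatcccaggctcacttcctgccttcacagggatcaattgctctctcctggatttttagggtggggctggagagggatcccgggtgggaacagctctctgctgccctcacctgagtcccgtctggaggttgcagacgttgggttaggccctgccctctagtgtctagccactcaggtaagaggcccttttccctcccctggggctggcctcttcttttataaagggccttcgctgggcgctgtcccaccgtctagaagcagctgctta
Krt18 promoter: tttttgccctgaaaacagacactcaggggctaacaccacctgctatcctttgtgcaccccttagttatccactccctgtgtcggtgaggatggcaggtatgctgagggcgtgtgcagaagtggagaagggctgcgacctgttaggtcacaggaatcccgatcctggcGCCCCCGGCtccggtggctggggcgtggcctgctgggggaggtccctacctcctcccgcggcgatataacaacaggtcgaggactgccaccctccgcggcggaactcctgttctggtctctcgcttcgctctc
Krt7 promoter: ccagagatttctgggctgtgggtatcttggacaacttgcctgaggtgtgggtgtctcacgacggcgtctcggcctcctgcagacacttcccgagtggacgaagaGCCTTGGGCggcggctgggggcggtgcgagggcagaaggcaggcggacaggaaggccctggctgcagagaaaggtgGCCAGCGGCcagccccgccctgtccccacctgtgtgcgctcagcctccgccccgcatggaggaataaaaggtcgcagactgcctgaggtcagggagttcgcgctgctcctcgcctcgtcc

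The *Krt8* window holds 1 GATA match, the *Krt18* window 1 AP-2 match and the *Krt7* window 2 AP-2 matches, and the 3 windows hold 0 TEAD matches. Among 32851 promoter windows of this length, 16.6% hold the AP-2 letters, 14.7% the TEAD letters and 11.2% the GATA letters. Of the regulators, the *Gata3* window holds 3 AP-2 matches, and 1 of the pair of *Gata2* windows holds 1 AP-2 and 1 TEAD match. An *Elf5* window holds 1 TEAD match. The *Tfap2a* windows hold none. The windows of *Tfap2c*, *Tead4* and *Krt19* were not analysed here.

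*Krt19*, the smallest keratin, which lacks most of the tail domain, fell. It was at 27.4, 33.5 and 34.2 CPM in WT replicates 1 to 3, and the *Bdh2*-knockout replicates gave 24.5, 20.2 and 23.3 CPM. The groups did not overlap, although WT replicate 1 was nearer to knockout replicates 1 and 3 than to the other WT libraries. The log2 fold change was -0.48 (standard error 0.09, adjusted p = 9.57e-04 from edgeR), a knockout level of 71.7% of WT, and it ranged from -0.58 to -0.40 with single libraries left out.

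*Krt7*, a type II keratin of trophoblast and duct epithelia, had 21, 27 and 29 counts in WT libraries and 18, 21 and 17 counts in *Bdh2*-knockout libraries, or 1.08, 1.34 and 1.15 against 0.653, 0.770 and 0.709 CPM. All knockout libraries were lower, and the log2 fold change was -0.74 (standard error 0.27, adjusted p = 0.0418 from edgeR). The call rests on few counts. It was lost when any 1 of the 6 libraries was left out (adjusted p = 0.0636 to 0.131 from edgeR) and with DESeq2 (adjusted p = 0.136), while the log2 fold change stayed between -0.80 and -0.65.

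*Krt8* was at 59.4, 78.7 and 65.4 CPM in the WT libraries, and the *Bdh2*-knockout libraries gave 61.4, 55.7 and 61.1 CPM. The WT libraries spread widely, with replicate 2 the highest and replicate 1 within the knockout range. The log2 fold change of -0.19 (95% interval -0.37 to -0.01) did not pass (adjusted p = 0.0840 from edgeR). It passed without WT replicate 1 (-0.28, adjusted p = 0.0185), when library totals were used for scaling (-0.25, adjusted p = 0.0272) and with no filter on low counts (-0.18, adjusted p = 0.0193), but without WT replicate 2 it was -0.07 (adjusted p = 0.423). The processed pseudogene *Krt8-ps* shares 26.9% of the 50-base stretches of the *Krt8* transcript. It was counted 1 to 6 times in a library, and how reads with several matches were counted is not stated.

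*Krt18* ranged less, at 37.9, 42.7 and 36.02 CPM in WT libraries against 40.5, 37.8 and 38.7 CPM in knockout libraries. The knockout values lay inside the WT range. Its log2 fold change was 0.01 with a 95% interval of -0.13 to 0.15 (adjusted p = 0.932 from edgeR), which does not reach the fall of *Krt19*. In the tested alternatives it took either sign, from -0.05 to 0.14.

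The *Krt8* to *Krt18* ratio of FPKM, which describes the balance of type II and type I partner, was 1.15, 1.35 and 1.33 in WT ASCs and 1.11, 1.08 and 1.16 in *Bdh2*-knockout ASCs. WT replicate 1 fell among the knockout values, and the log2 difference of -0.19 did not pass (two-sided exact permutation test, p = 0.2, where 3 against 3 cannot go below 0.1). Summed over both genes of each type, *Krt7* with *Krt8* over *Krt18* with *Krt19*, the ratio was 0.786 ± 0.0528 (SD, n = 3) in WT ASCs and 0.773 ± 0.0171 in *Bdh2*-knockout ASCs, and the groups overlapped (two-sided exact permutation test, p = 0.8). The *Krt19* to *Krt18* ratio, chosen after the values of both genes were seen, was 0.560, 0.608 and 0.735 in WT ASCs and 0.469, 0.414 and 0.467 in *Bdh2*-knockout ASCs. Here the groups did not overlap, with a log2 difference of -0.49 (p = 0.1 in the same two-sided exact permutation test, its lowest possible value).

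**Figure D4:**
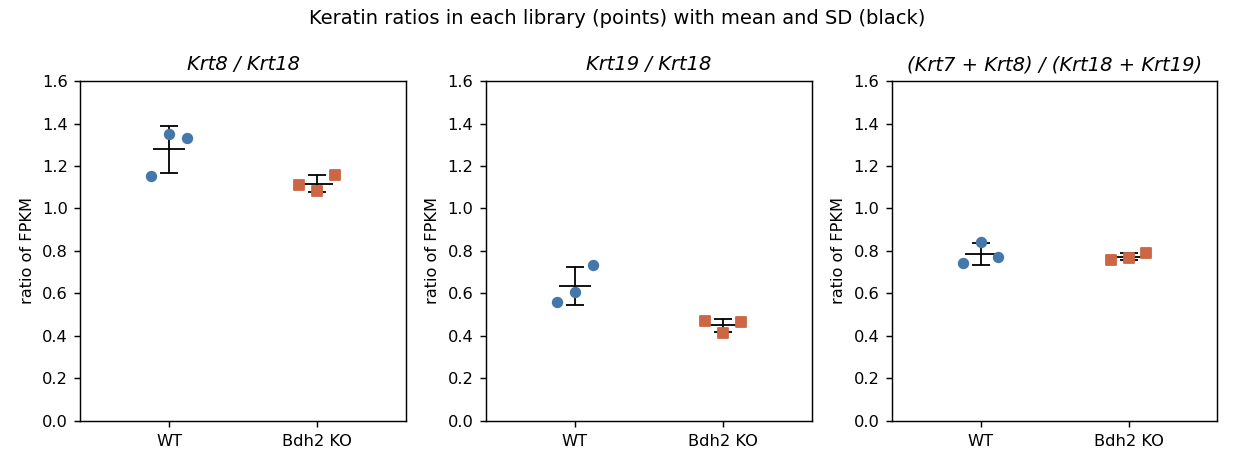
Ratio of FPKM values (vertical axes from 0) for *Krt8* over *Krt18*, *Krt19* over *Krt18* and both type II over both type I keratins, with 1 point per library and the mean and SD of 3 WT (circles) or 3 *Bdh2*-knockout libraries (squares) in black. The *Krt19* to *Krt18* ratios separate the genotypes, and the other panels overlap.

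By profile, the genes closest to *Krt8* were *Rnf113a2*, *Clip1* (a microtubule plus-end protein) and *Fos* (a subunit of the AP-1 transcription factor), at 0.0412, 0.0421 and 0.0473. *Krt18* was at 0.124, *Krt19* at 0.175 and *Krt7* at 0.265 from *Krt8* by the same measure.

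Hepatocytes express *Krt8* and *Krt18*, and the libraries richest in hepatocyte transcripts were WT replicates 1 and 2 and *Bdh2*-knockout replicate 2. With a hepatocyte score as a covariate, the log2 fold changes were -0.61 for *Tead4*, -0.64 for *Tfap2c* and -0.64 for *Krt19*, beside -0.56, -0.60 and -0.48 without it. *Krt7* did not pass with that covariate (-0.68, adjusted p = 0.164 from edgeR), and neither did *Krt8* (-0.23, adjusted p = 0.0891) or *Krt18* (0.04, adjusted p = 0.754). Leaving out those 3 libraries altogether, an alternative chosen after seeing the data, left 1 WT library against 2 knockout libraries, the lone WT library being assumed to vary like the others. The log2 fold changes were then -0.65 for *Tead4*, -0.73 for *Tfap2c* and -0.51 for *Krt19*. In that fit *Krt7* (-0.75, adjusted p = 0.256 from edgeR), *Krt8* (-0.10, adjusted p = 0.283) and *Krt18* (0.14, adjusted p = 0.176) did not pass. Primitive endoderm transcripts rose in the same libraries in which these genes fell (17 of 19 tested genes called higher, 1 lower), and their part in the result was not tested. Of the 12 listed primordial germ cell genes, which include *Tfap2c*, 3 were called higher and 2 lower (2 and 3 with library totals for scaling), the other lower gene being *Kit* (-0.53, adjusted p = 6.52e-06 from edgeR).

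The relatives of the 6 regulators were followed through a list of 15 AP-2, GATA, ELF and TEAD genes. Of 10 that could be tested, 3 rose and 4 fell, with a median log2 fold change of -0.07 beside -0.01 over all tested genes. That median was 0.02 without WT replicate 3, -0.20 with the hepatocyte covariate and 0.14 with no filter on low counts. The 3 that rose were *Gata6* (2.02) and *Gata4* (1.89), both primitive endoderm factors, and *Elf1* (0.52), which did not pass without the 3 libraries richest in hepatocyte transcripts (0.25, adjusted p = 0.0637 from edgeR). Those that fell were *Tead3* (-0.55, standard error 0.12, adjusted p = 0.00217), *Elf4* (-0.54, adjusted p = 0.00361), *Tead2* (-0.26, adjusted p = 0.00171) and *Tead1* (-0.17, adjusted p = 0.0122), all from edgeR. With *Tead4*, all 4 genes of the TEAD family were thus called lower, and their log2 fold changes were below 0 in all 16 fits. The call of *Tead1*, named here after its values were seen, was lost without *Bdh2*-knockout replicate 1 or 3 and with the hepatocyte covariate (adjusted p at most 0.0948 over the fits). *Tead1* was at 191.3, 184.8 and 191.6 CPM in WT ASCs and 168.8, 172.1 and 164.8 CPM in *Bdh2*-knockout ASCs, so that the most counted TEAD gene had the smallest log2 fold change of the 4 in all 16 fits.

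Hippo pathway genes control whether YAP and TAZ reach the TEAD factors, and were listed together with *Yap1*, *Wwtr1*, TEAD cofactors and targets. Of 29 tested genes of that list, 12 rose and 3 fell. Their median log2 fold change was 0.19, or 0.12 with the hepatocyte covariate and 0.09 without the 3 libraries richest in hepatocyte transcripts. *Ctgf*, a classical YAP and TEAD target, rose from 22.2 ± 1.98 to 41.95 ± 2.11 CPM (SD, n = 3). The fold was 0.91 on the log2 scale (standard error 0.07, adjusted p = 8.93e-07 from edgeR). *Vgll3* (0.75), a TEAD cofactor, and *Fat1* (0.72), a giant cadherin, also rose. *Stk3* (-0.34), which encodes the kinase MST2, *Taok3* (-0.28) and *Wwc1* (-0.21) fell, the last pair no longer passing without *Bdh2*-knockout replicate 3 (*Taok3*, adjusted p = 0.0527 from edgeR) or 1 (*Wwc1*, adjusted p = 0.0534 from edgeR). *Stk3* did not pass with the hepatocyte covariate (adjusted p = 0.0729 from edgeR). The call of *Vgll3* was lost with that covariate and without the 3 libraries richest in hepatocyte transcripts. Over the alternatives its log2 fold change was as low as 0.27. *Yap1* itself, named after its values were seen, rose by 0.33 (adjusted p = 2.13e-04 from edgeR), whereas its paralog *Wwtr1* (TAZ) and the target *Cyr61* had log2 fold changes of 0.08 each and did not pass (adjusted p = 0.300 and 0.459 from edgeR), except for *Wwtr1* without WT replicate 3.

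Other genes of the trophoblast lineage were called in both directions. Of 42 tested of 52 listed, 18 rose and 7 fell. Their median log2 fold change was 0.09, with 0.15 without WT replicate 3 and 0.21 when low counts were not filtered, but -0.07 without WT replicate 1, -0.03 with a mean count of at least 50, -0.05 with the hepatocyte covariate and -0.08 without the 3 libraries richest in hepatocyte transcripts. The largest increases were those of *Flt1* (1.91), *Lrp2* (1.90) and *Fgfr2* (1.73), all of which primitive endoderm or mesoderm cells also express. *Eomes*, a T-box factor of trophoblast stem cells and of mesendoderm, rose from 19.5, 22.3 and 23.4 CPM to 40.4, 41.3 and 38.3 CPM (log2 fold change 0.88, adjusted p = 1.23e-06 from edgeR), and is named after its values were seen. The homeobox gene *Esx1* (-0.77), *Hand1* (-0.73), which drives giant cell formation, and *Arid3a* (-0.34) fell. Without WT replicate 3, *Hand1* did not pass (adjusted p = 0.0502 from edgeR). Of the 52 genes, 7 were at 0 counts in all 6 libraries, namely *Tpbpa*, *Prl3d1*, *Prl3b1*, *Ctsq*, *Synb*, *Hsd3b6* and *Dppa1*. The number of lower genes was 10 with library totals for scaling, 4 with DESeq2, 3 without WT replicate 3 and 4 without WT replicate 2 or *Bdh2*-knockout replicate 2, beside 18 to 19 higher.

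Of the 50 other keratin genes, 35 had at most 3 counts in every library and 6 could be tested. *Krt42* (-0.59, standard error 0.15, adjusted p = 0.00548), *Krt17* (-0.47, adjusted p = 0.0262) and *Krt14* (-1.14, adjusted p = 0.0144) fell, *Krt13* rose (1.22, adjusted p = 0.00848), and *Krt10* and *Krt23* did not pass (all from edgeR). *Krt14*, a keratin of basal epidermis, was counted at most 30 times and is named after its values were seen. The calls of *Krt17* and *Krt14* were lost in 5 of 16 and 4 of 15 fits, among them those without WT replicate 3 or *Bdh2*-knockout replicate 3 for both genes, *Bdh2*-knockout replicate 1 for *Krt17* and 2 for *Krt14*. The call of *Krt42* held in all 16, and that of *Krt13* in 13 of 15. *Krt42*, *Krt17* and *Krt14* lie with *Krt19* in the chromosome 11 cluster, and so does *Krt13*.

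Keratin filaments are anchored by plakins and desmosomal proteins, and other intermediate filaments share the cell with them. Of 30 tested genes of this kind, 15 rose and 2 fell (median log2 fold change 0.18, or 0.11 without the 3 libraries richest in hepatocyte transcripts). The largest increases were in neurofilaments, with *Nefl* rising from 13.5 ± 1.43 to 37.3 ± 0.818 CPM (SD, n = 3, log2 fold change 1.46, adjusted p = 2.71e-08 from edgeR) and *Nefh* by 1.34. *Fam83h*, which recruits casein kinase to keratin filaments, rose by 0.90. *Eppk1* (epiplakin, which binds keratin networks) and *Des* (desmin) fell, by 0.34 and 0.28 on the log2 scale. None of the 4 keratins followed these increases.

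**Figure D5:**
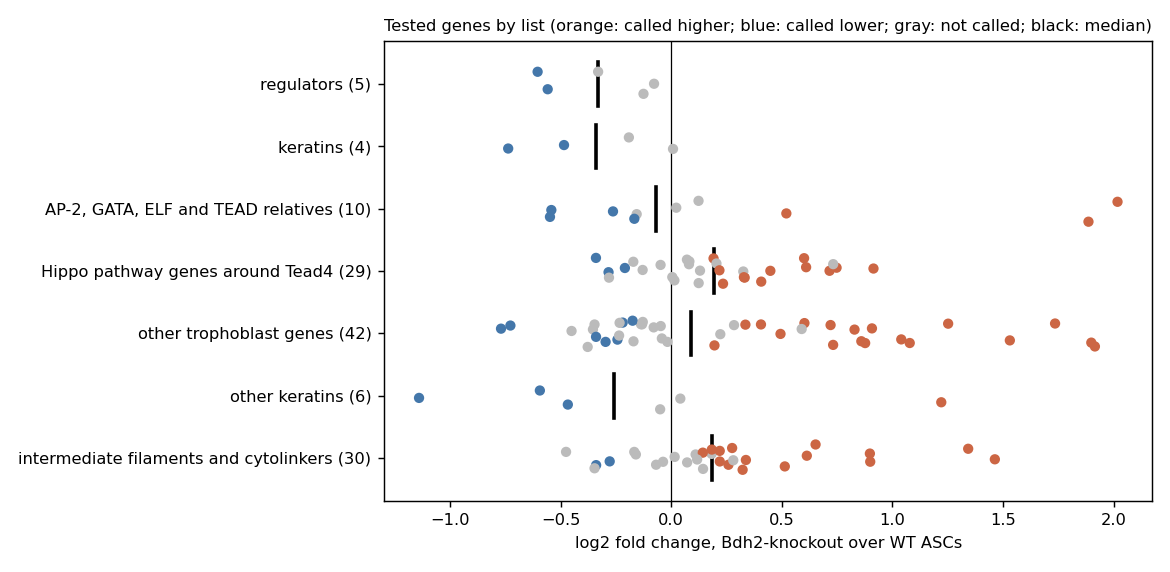
Log2 fold change of *Bdh2*-knockout over WT ASCs (horizontal axis) of each tested gene of 7 lists (vertical axis, number tested in brackets), with genes called higher in orange, called lower in blue and not called in gray, and the median of each list as a black line. The regulators and keratins described here hold 2 lower calls each and 0 higher calls, while higher calls outnumber lower ones among Hippo, other trophoblast and other filament genes.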

How the data were processed

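After quality trimming, the authors aligned reads to GRCm38 with HISAT2 2.0.5 and used FeatureCounts for counting, and the deposited table holds raw counts for 54715 genes with a length for each. The annotation release, strand setting and treatment of multi-mapping reads are not given in the sources used here.

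The main test was that of edgeR 4.0.16 under R 4.3.3 (TMM, filterByExpr, glmQLFit and glmQLFTest, genotype only, Benjamini-Hochberg adjustment over 16758 genes, threshold 0.05). CPM uses the TMM library size, and FPKM divides it by the deposited gene length. Intervals cover 95%. DESeq2 1.42.0 (the authors used an earlier version), limma-voom (limma 3.58.1), other scaling and filters, a replicate block, a hepatocyte covariate and leaving out each library were alternatives. The functions were tested on simulated data. Ratios were compared with an exact permutation test.

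The genes, lists and tests were chosen with earlier results of these data known. Named are the 10 genes, *Bdh2*, in each context list up to 3 called genes of largest change in each direction (mean count at least 20), the most abundant markers where a result touches them, and the 3 genes nearest in profile to *Tead4* and *Krt8* (log2 of CPM plus 0.1). Positions are those of the deposited table, equal to GENCODE M21. Floors cover counting error only.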

Additional observations from a re-analysis of the deposited data

How the results depend on the processing

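The falls of *Tead4*, *Tfap2c* and *Krt19* passed in all 15 alternatives, 1 of which, without the 3 libraries richest in hepatocyte transcripts, rests on a single WT library. Between 3 and 5 of the genes were called lower and 0 higher, with 3 to 4 lower when single libraries were left out. *Krt7* passed in 3 of 14 alternatives and *Krt8* in 3 of 15. Log2 fold changes near 0 changed sign: that of *Gata2* ranged from -0.19 to 0.00296, of *Gata3* from -0.68 to 0.00601 and of *Tfap2a* from -0.21 to 0.0470 with single libraries left out, and that of *Tfap2a* was 0.0770 without the 3 libraries richest in hepatocyte transcripts. Outside the ranges with single libraries left out, *Tfap2a* was also at -0.29 with the hepatocyte covariate, and *Gata2* at -0.25 without those 3 libraries. *Krt18* was at -0.0501 with library totals, at -0.00410 with a mean count of at least 50 and between -0.0444 and 0.0801 with single libraries left out. Of the other keratins, 2 in place of 4 were called with that count minimum, because fewer genes were tested, and with the hepatocyte covariate or without those 3 libraries, where the cause was not tested; single omissions gave 2 to 4. With library totals for scaling the median log2 fold change of all genes was -0.07, beside -0.01, and the split of calls went from 3518 higher and 3478 lower to 2731 and 4451.

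Deviations of libraries with equal replicate numbers correlated at -0.154, 0.0995 and 0.245, and those with unequal numbers at -0.349 to 0.312. So few libraries cannot decide whether the numbers mark pairs. With the replicate block 3 genes were lower, *Krt7* no longer passing (adjusted p = 0.0722 from edgeR). Across all genes 6452 passed under the block, beside 6996 without it. At this depth *Elf5* was at or under 3 counts in every library.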

Other observations

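Surface ectoderm, the other embryonic tissue in which AP-2, GATA3 and simple keratins occur together, was followed through 18 genes. Of 13 tested, 4 were called higher and 3 lower, and with library totals for scaling 2 higher and 3 lower. The calls were 4 higher and 0 lower without WT replicate 3, 2 and 2 without *Bdh2*-knockout replicate 1, 2 and 1 without *Bdh2*-knockout replicate 3, and 1 and 2 with the hepatocyte covariate. *Cdh1*, the epithelial cadherin, was at 546 ± 12.7 CPM in WT libraries and 553 ± 10.8 CPM in knockout libraries (SD, n = 3, log2 fold change 0.02, adjusted p = 0.769 from edgeR). *Epcam* was at 187 ± 9.29 and 205.6 ± 1.05 CPM (0.14, adjusted p = 0.0406 from edgeR), a call that held in 2 of 6 fits with 1 library left out. Transcripts of fibroblasts or mesenchyme summed to 48.9 to 56.3 CPM in WT ASCs and 51.8 to 58.3 CPM in *Bdh2*-knockout ASCs over 15 genes. Of 10 tested, *Col1a1* (-0.62, adjusted p = 0.00130 from edgeR) and *Pdgfrb* (-0.91, adjusted p = 0.00255 from edgeR) fell and *Fbn1* rose (0.81, adjusted p = 1.87e-05 from edgeR), and the groups' sums overlapped. *Pdgfrb* is named after its values were seen.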
